A study of Mus musculus with 9 samples.

Results

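Tumours from mice given digoxin at 1 mg/kg were compared with tumours from mice given vehicle, gene by gene, by RNA sequencing of bulk tumour. The tumours were grown from LLC cells injected under the skin of the right flank of male C57BL/6 mice 4 to 5 weeks old. Intraperitoneal treatment began 5 days later with PBS alone (vehicle), with digoxin at 0.1 mg/kg or with digoxin at 1 mg/kg, and each group has 3 samples. The 3 samples at 1 mg/kg and the 3 vehicle samples, 6 of the 9 in the series, make up the comparison, and the 0.1 mg/kg samples were used only to share the estimate of spread and for values set beside it. The table lists 35321 genes. The tested set holds the 12949 that had 1 FPKM (fragment counts scaled by transcript length and library size) or more in 3 or more of these 6 libraries. All groups were injected with the same cell line, and the labels name no genetic change between them. Whether the tumours differ genetically was not tested. Whether each sample is a different mouse is not given in the labels. Each p-value therefore reflects only how much these samples vary, and that variation may be partly technical.

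Digoxin is a cardiac glycoside, a plant steroid that binds the Na,K-ATPase from outside the cell and blocks it. The pump keeps intracellular sodium low and potassium high, and its inhibition raises intracellular sodium and, through sodium-calcium exchange, calcium. In most mouse and rat tissues the pump binds cardiac glycosides far more weakly than in humans. LLC (Lewis lung carcinoma) is a transplantable line of C57BL/6 origin that grows in immune-competent mice, so a tumour sample holds RNA of the injected cells and of the host's blood vessels, connective tissue and immune cells.

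The vehicle libraries hold 48649868 to 51810957 recovered reads and the 1 mg/kg libraries 40517063 to 42252371. Sample 1 at 1 mg/kg stands apart from the other 2 of its group. On log2(FPKM + 1), the scale of every difference given here, it correlated with them at r = 0.954 and 0.959, against 0.991 between those 2 and 0.99 to 0.994 among the vehicle libraries. It also had 28003 genes above 0, against 25343 and 26136 in the other 2 and 23905 to 24624 in vehicle. Among the 457 genes called at least 2-fold lower, sample 1 was the highest of the 3 treated samples in 405, and among the 832 called at least 2-fold higher it was the highest in 328 and the lowest in 435. Of epithelial genes, the adhesion molecules were near 0 in all 6 libraries, with Epcam at 0 to 0.149 FPKM and Cdh1 (E-cadherin) at 0.162 to 0.445 FPKM, whereas the simple-epithelial keratin genes Krt18 in vehicle and Krt8 at 1 mg/kg were not near 0. The mesenchymal intermediate filament gene Vim stood at 799, 706 and 755 FPKM in vehicle and 1353, 912 and 867 FPKM at 1 mg/kg. In bulk tissue, fewer cells of a type and less RNA per cell cannot be told apart.

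In the tumours of the 1 mg/kg group, stress-responsive transcription factors, interferon-stimulated genes, class I antigen presentation and neutrophil genes stood higher than in vehicle, and genes for ribosome assembly, nuclear transport, nucleotide synthesis and several developmental regulators stood lower. By limma with Benjamini-Hochberg adjustment at 0.05, 6076 genes passed (46.9% of those tested), 2615 higher (20.2%) and 3461 lower (26.7%). At least a 2-fold difference was passed by 832 genes upwards (6.43%) and 457 downwards (3.53%). The 3 treated values lay wholly above the 3 vehicle values for 24.2% of tested genes and wholly below them for 34.6%. The median difference of all tested genes was -0.06, or -0.01 without sample 1 at 1 mg/kg, whose omission left 3471 genes higher and 3518 lower. Without vehicle sample 3 the counts were 1822 and 2303. These shares and this median are the background against which each gene list below is read. Of the tested genes, 379 passed the filter with all 3 treated libraries and no vehicle library and 246 the other way round, so members that passed only through one group had to differ. The 809 genes just inside the filter had a median mean of 1.15 FPKM and the 726 just outside it 0.838 FPKM. Because of the added 1, weakly expressed genes appear to differ by less than they do.

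The genes with the largest rises were of several kinds. Fosb, a subunit of the transcription factor AP-1, stood at 0.688, 0.509 and 0.529 FPKM in vehicle and 189, 81.7 and 104 FPKM at 1 mg/kg and rose by 6.23 (SE 0.33, limma adjusted p = 5.39e-05) on the log2 scale. Krt8, which encodes the intermediate filament keratin 8, stood at 4.13, 2.45 and 1.7 FPKM in vehicle and 116, 126 and 103 FPKM at 1 mg/kg and rose by 5.00 (SE 0.26, limma adjusted p = 5.39e-05). For both genes every treated sample lay far above every vehicle sample. Syt8, a synaptotagmin, went from 0.532, 0.295 and 0.377 FPKM to 23.7, 41.2 and 39.6 FPKM, and Acap1, a GTPase-activating protein for Arf6, from 4.12, 2.93 and 2.76 FPKM to 85.3, 116 and 114 FPKM. The matrix gene Efemp1 stood at 1.43, 0.520 and 0.891 FPKM in vehicle and 17.5, 44.6 and 48.2 FPKM at 1 mg/kg, with sample 1 the lowest of the treated samples. Magea8, a cancer-testis gene, was at 0.287, 0.121 and 0 FPKM in vehicle and 13.1, 20.9 and 20.9 FPKM at 1 mg/kg. Fosb, Syt8 and Magea8 were below 1 FPKM in every vehicle library. They passed the filter only through the treated libraries and so had to differ in that direction. Tm9sf5 rose by 4.9 (SE 0.34, limma adjusted p = 0.000139). Prl2c3, a proliferin, rose by 4.1, but the proliferin genes are near-identical copies between which reads may be split, so its own level is uncertain.

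Among the largest falls were genes of neural and developmental function. Nptx1, the secreted neuronal pentraxin 1, stood at 44, 59.1 and 57.3 FPKM in vehicle and 8.95, 0.472 and 0.804 FPKM at 1 mg/kg and fell by 4.18 (SE 0.97, limma adjusted p = 0.00884). Krt18, whose product normally pairs with keratin 8, stood at 63, 43.1 and 60.9 FPKM in vehicle and 8.84, 1.06 and 1.03 FPKM at 1 mg/kg and fell by 4.02 (SE 0.86, limma adjusted p = 0.0063). In both, sample 1 kept several times the level of samples 2 and 3 and still lay below every vehicle sample. The same order of samples held for Mmp3, the matrix protease stromelysin-1 (111, 238 and 99.8 FPKM in vehicle; 33.9, 3.28 and 7.62 FPKM at 1 mg/kg), and for Bnc1, the zinc-finger protein basonuclin (11.5, 12.9 and 12.8 FPKM; 1.93, 0.0632 and 0.137 FPKM). Wnt7b, a Wnt ligand, went from 29.6, 23.7 and 26.3 FPKM to 4.41, 1.17 and 1.82 FPKM and Stra6, the retinol-uptake receptor, from 18, 11.1 and 10.9 FPKM to 2.26, 0.203 and 0.119 FPKM. Ntn1, the guidance factor netrin-1, stood at 64.7, 71.9 and 64 FPKM in vehicle and 22.1, 1.34 and 1.6 FPKM at 1 mg/kg. Its fall of 3.7 (SE 1.12, limma adjusted p = 0.0257) missed the threshold in 5 of 9 fits that each dropped 1 library (largest limma adjusted p = 0.084, with 1 mg/kg sample 3 dropped), while the netrin receptor gene Unc5a fell by 2.96 (SE 0.64, limma adjusted p = 0.00669). Krt19, another simple-epithelial keratin, rose by 2.95 (SE 0.23, limma adjusted p = 0.000174), so the keratins did not move in 1 direction.

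**Figure D1:**
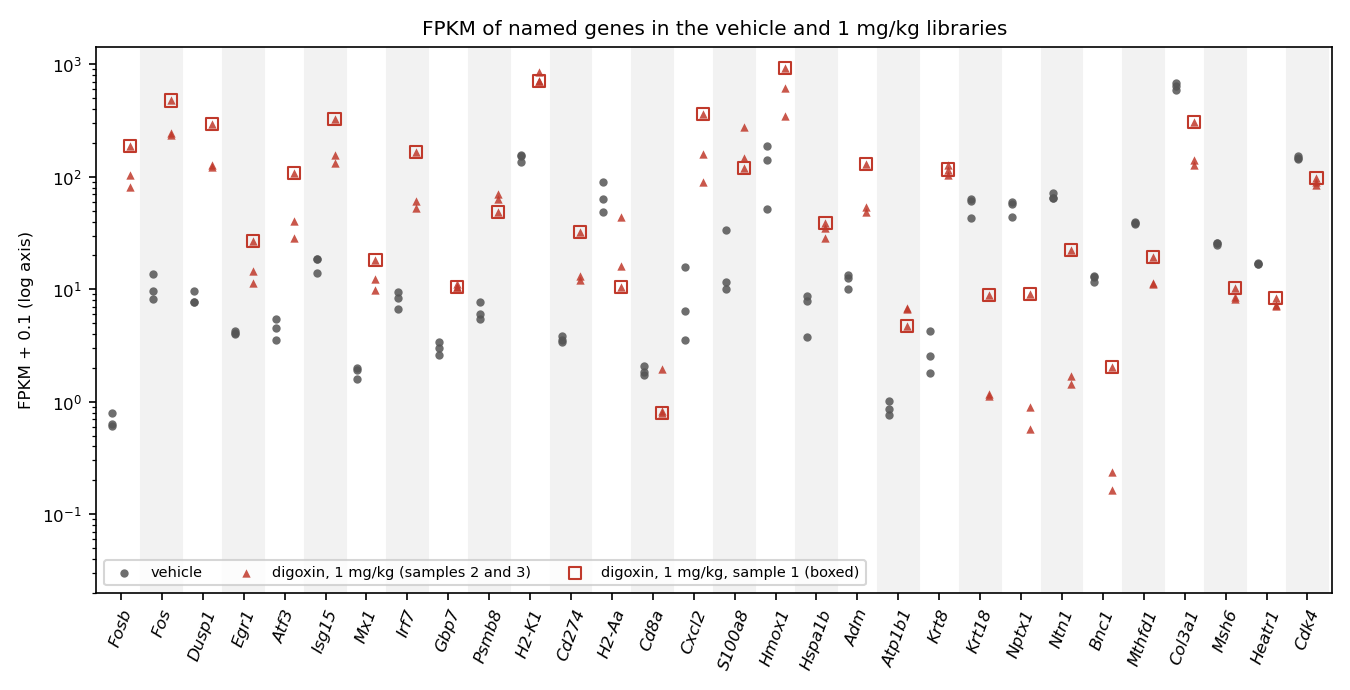
FPKM plus 0.1 on a log axis for 30 named genes, with grey points for the 3 vehicle samples, red triangles for 1 mg/kg samples 2 and 3, and boxed triangles for 1 mg/kg sample 1. From Fosb to Krt8 most treated values lie above the vehicle values, with H2-Aa and Cd8a as exceptions, and from Krt18 to Cdk4 all treated values lie below them, sample 1 nearest to vehicle.

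Transcripts for regulatory subunits of the drug's target differed from one another. The Na,K-ATPase is built of a catalytic alpha and a glycosylated beta subunit, with small FXYD proteins as regulators. The beta subunit gene Atp1b1 stood at 0.767, 0.921 and 0.658 FPKM in vehicle and 4.65, 6.66 and 6.59 FPKM at 1 mg/kg and rose by 1.96 (SE 0.18, limma adjusted p = 0.000334). Every treated sample lay above every vehicle sample. Its vehicle values were all below 1 FPKM, so Atp1b1 passed the filter only through the treated libraries and had to differ in that direction. Fxyd5 rose by 0.48 (SE 0.12, limma adjusted p = 0.0134), which missed the threshold in 1 of the 9 leave-out fits (largest limma adjusted p = 0.0536, with vehicle sample 3 dropped). Atp1b3, at 76.9, 75.6 and 77.6 FPKM in vehicle and 83, 75.3 and 72.9 FPKM at 1 mg/kg, differed by 0.01 (limma adjusted p = 0.971). At 0.1 mg/kg, against the same vehicle libraries, the difference was 1.63 for Atp1b1. In the osmotic stress list 2 rose and 5 fell of 12 tested. Sgk1, a kinase that acts on sodium channels and transporters and is induced by glucocorticoids and osmotic stress, rose by 2.81 (SE 0.37, limma adjusted p = 0.000992). Nfat5, the transcription factor of the osmotic stress response, fell by 0.88 (SE 0.12, limma adjusted p = 0.00123), and Stk39, the SPAK kinase that activates sodium-coupled chloride transporters, fell by 2.04 (SE 0.40, limma adjusted p = 0.00432). Slc47a1, an efflux transporter for organic cations, rose by 3.36 (SE 0.37, limma adjusted p = 0.000518), and Kcnh2, the hERG potassium channel, rose by 2.29 (SE 0.47, limma adjusted p = 0.00524).

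Immediate early genes, which cells switch on within minutes of growth factor or stress signals without new protein synthesis, were higher. AP-1 is a dimer of Fos, Jun, ATF or Maf family proteins: 10 rose and 1 fell of 15 tested of its subunit genes, with a median difference of 1.17. Fos stood at 13.6, 9.61 and 8.03 FPKM in vehicle and 477, 235 and 245 FPKM at 1 mg/kg and rose by 4.76 (SE 0.41, limma adjusted p = 0.000233). Atf3, induced by many stresses, stood at 5.29, 4.4 and 3.43 FPKM and 108, 28.4 and 40.6 FPKM and rose by 3.27 (SE 0.46, limma adjusted p = 0.00119). Both were highest in sample 1, and the groups did not overlap. Junb rose by 1.75, Jun by 1.69 and Jund by 1.21, while Fosl1 differed by -0.49 (limma adjusted p = 0.216). The fallen member was Mafg (-0.46), and the fallen count was 0 with 0.1 mg/kg sample 1, 1 mg/kg sample 2, 1 mg/kg sample 3, vehicle sample 1, vehicle sample 2 or vehicle sample 3 left out and 2 with 1 mg/kg sample 1 left out. Among immediate early genes outside AP-1, 18 rose and 1 fell of 26 tested, with a median of 1.3. The zinc-finger factor Egr1 stood at 4.13, 3.97 and 3.87 FPKM and 26.9, 11.4 and 14.4 FPKM and rose by 1.8 (SE 0.29, limma adjusted p = 0.00215). Ccn1, a secreted matrix protein, rose by 3.19 (SE 0.32, limma adjusted p = 0.000402), and Zfp36, which destabilises cytokine messenger RNAs, rose by 2.76 (SE 0.33, limma adjusted p = 0.000724). The flow-responsive factor Klf2 rose by 1.89 and the kinase gene Plk2 by 1.79. Egr3 fell by 0.80 (SE 0.11, limma adjusted p = 0.00108), and without 1 mg/kg sample 1 the fallen count was 3.

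Feedback inhibitors of the MAP kinase pathway went both ways. The dual-specificity phosphatase Dusp1, which inactivates JNK and p38, stood at 9.61, 7.64 and 7.67 FPKM in vehicle and 295, 126 and 122 FPKM at 1 mg/kg and rose by 4.17 (SE 0.41, limma adjusted p = 0.000384). Dusp4 rose by 2.03, Dusp10 by 1.91, Dusp5 by 1.3 and Dusp6, the ERK phosphatase, by 0.65. Of the Sprouty and Spred genes, which restrain receptor tyrosine kinase signalling, Spry1 fell by 2.41 (SE 0.37, limma adjusted p = 0.00178), Spry4 fell by 1.67 (SE 0.31, limma adjusted p = 0.00365) and Spred2 fell by 0.94 (SE 0.11, limma adjusted p = 0.000693). In the whole list 8 rose and 3 fell of 17 tested, and the fallen count was 5 with 0.1 mg/kg sample 2 left out and 6 with 1 mg/kg sample 1 left out. Among EGF receptor ligands, Ereg (epiregulin) rose by 2.16 (SE 0.32, limma adjusted p = 0.00147) and Tgfa rose by 0.98 (SE 0.16, limma adjusted p = 0.00215). Their receptor gene Egfr stood at 4.35, 5.63 and 6.16 FPKM in vehicle and 1.25, 0.524 and 0.377 FPKM at 1 mg/kg and fell by 1.92 (SE 0.33, limma adjusted p = 0.00253), and Erbb2 differed by -0.01 (limma adjusted p = 0.944).

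Interferon-stimulated genes were higher almost throughout. Type I interferons signal through a complex that includes STAT2 and IRF9 and binds the interferon-stimulated response element (ISRE) in target promoters, and interferon-gamma induces IRF1, a factor that binds related elements. The promoters of Isg15 and Ifit3, for the type I response, and of Gbp7 and Irgm2, for the GTPases of cell-autonomous immunity, are printed because their genes changed and they carry the searched ISRE core, GAAA-NN-GAAA written without gaps (N is any base), on either strand; capitals mark each match, and matches overlap in Isg15. Each runs from 250 bases before to 50 bases after the start site on the sense strand, from RefSeq on GRCm38.p6: Isg15 at chr4:156200769-156201068 (minus strand), Ifit3 at chr19:34583279-34583578 (plus), Gbp7 at chr3:142530086-142530385 (plus) and Irgm2 at chr11:58214727-58215026 (plus).
Isg15: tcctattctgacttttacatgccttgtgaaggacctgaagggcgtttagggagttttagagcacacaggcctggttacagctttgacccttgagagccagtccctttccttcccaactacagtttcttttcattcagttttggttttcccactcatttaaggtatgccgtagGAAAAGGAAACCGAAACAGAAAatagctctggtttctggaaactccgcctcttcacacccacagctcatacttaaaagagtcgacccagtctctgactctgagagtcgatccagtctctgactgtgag
Ifit3: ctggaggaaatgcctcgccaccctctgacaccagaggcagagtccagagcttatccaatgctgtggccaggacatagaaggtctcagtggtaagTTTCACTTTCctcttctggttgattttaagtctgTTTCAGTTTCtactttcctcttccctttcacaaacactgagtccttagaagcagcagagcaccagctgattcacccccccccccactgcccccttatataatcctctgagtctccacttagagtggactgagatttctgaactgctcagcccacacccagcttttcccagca
Gbp7: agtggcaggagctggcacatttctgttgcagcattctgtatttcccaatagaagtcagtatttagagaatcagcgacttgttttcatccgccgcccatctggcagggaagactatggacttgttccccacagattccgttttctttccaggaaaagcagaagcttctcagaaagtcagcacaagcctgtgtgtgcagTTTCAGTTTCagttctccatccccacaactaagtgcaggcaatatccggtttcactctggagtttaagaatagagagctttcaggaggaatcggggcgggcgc
Irgm2: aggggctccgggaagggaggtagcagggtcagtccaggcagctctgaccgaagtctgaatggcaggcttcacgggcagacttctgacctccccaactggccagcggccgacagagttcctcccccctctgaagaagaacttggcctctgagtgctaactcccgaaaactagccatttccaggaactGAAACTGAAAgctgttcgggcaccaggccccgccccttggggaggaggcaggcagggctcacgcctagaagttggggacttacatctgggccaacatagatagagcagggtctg
The motif lies 78 to 57 bases before the start site in Isg15, as 3 overlapping matches, 156 to 147 and 122 to 113 bases before it in Ifit3, 53 to 44 in Gbp7 and 64 to 55 in Irgm2. Of all 27025 promoters of this length in the RefSeq table, 4.0% hold it, and 3.9% of the 9194 that belong to tested genes. The share was 16 of 28 (57.1%) for the type I interferon list, 11 of 12 (91.7%) for the GTPase list and 5 of 18 (27.8%) for class I presentation, counting members with a promoter in the table. It was 12.6% of 562 promoters of genes at least 2-fold higher and 1.7% of 291 of genes at least 2-fold lower. A match describes the letters in this window and not a bound site.

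Of the type I interferon effectors 33 rose and 0 fell of 38 tested, with a median of 1.67 against -0.06 for all genes. Isg15, a ubiquitin-like modifier, stood at 18.3, 18.7 and 13.8 FPKM in vehicle and 325, 132 and 156 FPKM at 1 mg/kg and rose by 3.42 (SE 0.31, limma adjusted p = 0.000291). Ifit3, which takes part in sensing viral RNA, stood at 5.68, 6.56 and 5.45 FPKM and 87.5, 28.1 and 35.2 FPKM and rose by 2.72 (SE 0.35, limma adjusted p = 0.000939). For both, all treated samples lay above all vehicle samples and sample 1 was the highest. Mx1, a dynamin-like antiviral GTPase, rose by 2.35, Rsad2 (viperin) by 2.51, Oas2, which makes the activator of RNase L, by 2.37, and Usp18, which removes ISG15 and damps the receptor, by 2.47. Eif2ak2, the kinase PKR, differed by 0.24 (limma adjusted p = 0.0992). The medians by sample were 2.17, 1.24 and 1.39 at 1 mg/kg, highest in sample 1, and 1.77, 1.38 and 1.98 at 0.1 mg/kg.

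All 16 tested guanylate-binding proteins and immunity-related GTPases, which attack the vacuoles of intracellular pathogens, rose, with a median of 1.6. Gbp7 stood at 2.53, 2.91 and 3.32 FPKM in vehicle and 10.4, 11 and 10.4 FPKM at 1 mg/kg and rose by 1.57 (SE 0.18, limma adjusted p = 0.000689). Irgm2 stood at 3.69, 4.51 and 4.93 FPKM and 24, 21.3 and 19.5 FPKM and rose by 2.07 (SE 0.20, limma adjusted p = 0.000362). The 3 treated samples lay close together for both genes and did not overlap vehicle. Ifi47 rose by 2.36, Igtp by 2.21 and Gbp3 by 1.99. At 0.1 mg/kg, against the same vehicle libraries, all 16 also rose, with a median of 2.44, where the background is 20.3% of genes higher and 21.9% lower. Among the regulators, Irf7, the amplifier of type I interferon, stood at 9.29, 8.31 and 6.63 FPKM in vehicle and 165, 52.9 and 61 FPKM at 1 mg/kg and rose by 3.19 (SE 0.38, limma adjusted p = 0.000718). In the list of interferon regulatory factors, STATs and SOCS genes 8 rose and 5 fell of 19 tested. Stat2 rose by 1.53, Irf1 by 1.22 and Irf9 by 0.77. The signalling inhibitor Socs3 rose by 1.3, whereas Socs5 fell by 1.05 (SE 0.13, limma adjusted p = 0.000762), Socs7 fell by 0.67 and Stat5b by 0.65. Of upstream genes, Sting1, the adaptor for cytosolic DNA sensing, fell by 0.80 (SE 0.07, limma adjusted p = 0.000233), and Tlr7, a sensor of single-stranded RNA, rose by 0.53 (SE 0.12, limma adjusted p = 0.00856).

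Genes for class I antigen presentation, which displays cytosolic peptides to CD8 T cells, were higher, and those for class II were not. In the class I list 16 rose and 0 fell of 22 tested, with a median of 1.25. The heavy chain gene H2-K1 stood at 155, 134 and 152 FPKM in vehicle and 709.9, 850.3 and 709 FPKM at 1 mg/kg and rose by 2.35 (SE 0.25, limma adjusted p = 0.00046). B2m, the shared light chain, stood at 939.5, 894 and 917 FPKM and 2774, 2434 and 2267 FPKM and rose by 1.44 (SE 0.21, limma adjusted p = 0.00143). Psmb8, an immunoproteasome subunit, stood at 7.54, 5.34 and 5.92 FPKM and 48.9, 70.4 and 63.4 FPKM and rose by 3.09 (SE 0.26, limma adjusted p = 0.000226). For these 3 genes every treated sample lay above every vehicle sample. The peptide transporter Tap1 rose by 2.08 and the transactivator Nlrc5 by 1.09. Class I heavy chains share sequence, and reads may be split between them. The class II gene H2-Aa stood at 48.3, 62.7 and 90.1 FPKM in vehicle, 10.4, 44 and 16.1 FPKM at 1 mg/kg and 141, 72.7 and 170.4 FPKM at 0.1 mg/kg. All 1 mg/kg values lay below vehicle and sample 2 came close to it. Its fall of 1.68 (SE 0.51, limma adjusted p = 0.0249) missed the threshold in 4 of 9 leave-out fits (largest limma adjusted p = 0.0869, with vehicle sample 3 dropped). In the class II list 1 rose and 3 fell of 9 tested, and without 1 mg/kg sample 1 none passed. The risen count was 0 with 1 mg/kg sample 1, 1 mg/kg sample 2, vehicle sample 1, vehicle sample 2 or vehicle sample 3 left out, and the fallen count 0 with 1 mg/kg sample 1, 1 mg/kg sample 3, vehicle sample 2 or vehicle sample 3 left out and 5 with 1 mg/kg sample 2 left out. At 0.1 mg/kg, 5 higher and 0 lower of the same 9 passed against vehicle, with a median of 0.97 beside -0.36 at 1 mg/kg. For H2-Aa the 2 doses differed by -2.56 (limma adjusted p = 0.112), which did not pass.

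Immune cell markers did not move as a block. The 13 tested T cell markers had a median of -0.35, with 1 higher (Lat, the adaptor of the T cell receptor) and 2 lower, and their summed level over the 21 markers was 33.6, 40.4 and 36.7 FPKM in vehicle and 18.9, 55.1 and 34.3 FPKM at 1 mg/kg. The groups overlap, with sample 1 the lowest of all. The fallen count was 0 with 1 mg/kg sample 3 or vehicle sample 2 left out, 1 with 1 mg/kg sample 1, vehicle sample 1 or vehicle sample 3 left out and 5 with 1 mg/kg sample 2 left out, and the risen count 2 with 1 mg/kg sample 1 left out. Cd8a, the coreceptor of cytotoxic T cells, stood at 1.64, 1.96 and 1.72 FPKM in vehicle, 0.690, 1.85 and 0.719 FPKM at 1 mg/kg and 4.52, 2.71 and 4.52 FPKM at 0.1 mg/kg, and its difference at 1 mg/kg was -0.45 (limma adjusted p = 0.135). At 0.1 mg/kg 10 higher and 0 lower of the T cell markers passed against vehicle. In the cytotoxic and natural killer list 4 rose and 1 fell of 9 tested, the risen count being 1 with 1 mg/kg sample 2, 1 mg/kg sample 3, vehicle sample 1 or vehicle sample 3 left out and 2 with vehicle sample 2 left out. Eomes rose by 1.33 (SE 0.16, limma adjusted p = 0.000724) and Gzmk fell by 0.93 (SE 0.18, limma adjusted p = 0.00434). Macrophage markers split: Cd14 rose by 1.51 and Itgam by 1.25, while Cx3cr1, the fractalkine receptor of patrolling and resident cells, stood at 12.9, 16.1 and 19.8 FPKM in vehicle and 1.41, 0.498 and 0.488 FPKM at 1 mg/kg and fell by 3.28 (SE 0.26, limma adjusted p = 0.000194). Ccr2, the receptor of inflammatory monocytes, fell by 0.67. In all 10 rose and 5 fell of 22 tested, the risen count being 4 with vehicle sample 3 left out and 6 with vehicle sample 2 left out, and the summed level of the 22 markers ranged from 3492 to 3910.4 FPKM in vehicle and from 3172 to 4367 FPKM at 1 mg/kg. Nos2, the inducible nitric oxide synthase, rose by 3.42 (SE 0.56, limma adjusted p = 0.00221), and Chil3, a marker of alternatively activated macrophages, rose by 3.44 (SE 0.61, limma adjusted p = 0.00286). In the dendritic cell list 2 rose and 1 fell of 9 tested, the risen count being 1 with 1 mg/kg sample 2, 1 mg/kg sample 3, vehicle sample 1, vehicle sample 2 or vehicle sample 3 left out and 4 with 1 mg/kg sample 1 left out and the fallen count 3 with 0.1 mg/kg sample 2 left out. Clec9a, of cross-presenting dendritic cells, fell by 2.27 (SE 0.35, limma adjusted p = 0.00172), and Bst2 (tetherin), also an interferon-stimulated gene, rose by 1.53 (SE 0.22, limma adjusted p = 0.00137). The summed level of the 14 dendritic cell markers was 298, 306 and 279 FPKM in vehicle and 644, 441 and 463 FPKM at 1 mg/kg, without overlap. Over the 9 tested members the medians were -0.16, 0.27 and 0.06 in 1 mg/kg samples 1, 2 and 3, so the list as a whole did not follow its sum. Of 16 B and plasma cell markers only 4 could be tested, and their sum was 82.6, 85 and 82.6 FPKM in vehicle and 119, 329.5 and 226 FPKM at 1 mg/kg, also without overlap. The part of cell numbers in the interferon and class I results was not tested.

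Checkpoint genes rose more often than they fell. Cd274, which encodes PD-L1, stood at 3.73, 3.47 and 3.33 FPKM in vehicle and 32.3, 12.1 and 12.9 FPKM at 1 mg/kg and rose by 2.02 (SE 0.39, limma adjusted p = 0.0041). Havcr2 (TIM-3) rose by 1.41, Tigit by 1.44 and Cd47, the signal that restrains phagocytosis, by 0.72. Cd276 (B7-H3) fell by 1.24 (SE 0.19, limma adjusted p = 0.00181). In the list 11 rose and 1 fell of 21 tested, with a median of 0.49, and the risen count was 7 with vehicle sample 3 left out. In the adenosine pathway Slc29a1, a nucleoside transporter, fell by 1.98 (SE 0.21, limma adjusted p = 0.000478).

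Chemokines that draw neutrophils and monocytes rose together with neutrophil markers. Cxcl2, a ligand of the neutrophil receptor CXCR2, stood at 15.7, 6.27 and 3.42 FPKM in vehicle and 362, 89.9 and 159 FPKM at 1 mg/kg and rose by 4.42 (SE 0.70, limma adjusted p = 0.00195). Cxcl3 stood at 7.25, 1.84 and 1.3 FPKM and 79.1, 32.5 and 60.7 FPKM and rose by 3.86 (SE 0.65, limma adjusted p = 0.00238). In both, vehicle sample 1 was the highest of the vehicle samples and the groups did not overlap. Ccl3 and Ccl4, which attract monocytes and T cells, each rose by 2.83 and Cxcl1 by 2.29. Ccl11, the eosinophil attractant eotaxin, stood at 12.7, 13 and 11.7 FPKM and 3.54, 0.729 and 0.981 FPKM and fell by 2.43 (SE 0.36, limma adjusted p = 0.00145). In the list 12 rose and 1 fell of 17 tested, with a median of 1.43. Of neutrophil markers 13 rose and 0 fell of 16 tested, with a median of 2.15. S100a8, a subunit of calprotectin, stood at 33.6, 11.5 and 10.0 FPKM and 119.8, 147 and 279.5 FPKM and rose by 3.35 (SE 0.67, limma adjusted p = 0.00481), Retnlg rose by 3.99 (SE 0.88, limma adjusted p = 0.00709), and Ly6g, the antigen used to sort mouse neutrophils, rose by 1.6 (SE 0.30, limma adjusted p = 0.00374). The summed level of the 20 neutrophil markers was 269, 134 and 103 FPKM in vehicle, 706, 804 and 1399.8 FPKM at 1 mg/kg and 1027, 365 and 218 FPKM at 0.1 mg/kg, with none of the 20 at 0 in all 6 libraries. The part of neutrophil numbers in the chemokine and cytokine results was not tested.

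Of cytokines of the IL-6, CSF and TNF groups 11 rose and 2 fell of 19 tested, with a median of 0.71. Osm (oncostatin M) rose by 2.7 (SE 0.37, limma adjusted p = 0.00113), Tnf rose by 2.11 (SE 0.42, limma adjusted p = 0.0048), Il10 rose by 2.01 (SE 0.32, limma adjusted p = 0.00201) and Csf2 (GM-CSF) rose by 1.4 (SE 0.27, limma adjusted p = 0.00393), while Tgfb3 fell by 1.64 (SE 0.28, limma adjusted p = 0.00247). The fallen count was 1 with 1 mg/kg sample 3, vehicle sample 1 or vehicle sample 2 left out. In the interleukin-1 and inflammasome list 12 rose and 1 fell of 19 tested. Casp1, which cleaves pro-interleukin-1beta, rose by 2.09 (SE 0.33, limma adjusted p = 0.00183), Casp4 rose by 1.61 and the sensor Aim2 by 1.18. Il1b itself stood at 28.5, 24.2 and 19.13 FPKM in vehicle and 108, 33.4 and 61.4 FPKM at 1 mg/kg (limma adjusted p = 0.0644). The fallen member was Il1r1, and the fallen count was 0 with vehicle sample 2 left out and 3 with 1 mg/kg sample 1 left out. Among NF-kB genes the inducible inhibitor Tnfaip3 (A20) rose by 2.31 (SE 0.42, limma adjusted p = 0.00314), Nfkbiz rose by 2.17 (SE 0.25, limma adjusted p = 0.000639) and Nfkbia rose by 1.8 (SE 0.33, limma adjusted p = 0.00329), whereas the subunit genes Nfkb1 and Rela differed by -0.15 and 0.10 (limma adjusted p = 0.115 and 0.312). In that list 11 rose and 1 fell of 21 tested, the risen count was 5 with vehicle sample 2 left out and 7 with 1 mg/kg sample 2, 1 mg/kg sample 3 or vehicle sample 3 left out, and the fallen count was 0 with 0.1 mg/kg sample 3, 1 mg/kg sample 2, 1 mg/kg sample 3, vehicle sample 1, vehicle sample 2 or vehicle sample 3 left out. Serpinb2, the plasminogen activator inhibitor PAI-2, stood at 3.12, 0.655 and 0.378 FPKM and 93.9, 21.1 and 33 FPKM and rose by 4.3 (SE 0.59, limma adjusted p = 0.00113). Ptgs2 (cyclooxygenase-2) rose by 2.43.

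Stress pathways were raised unequally. In the integrated stress response, in which phosphorylation of eIF2alpha favours translation of ATF4, 14 rose and 3 fell of 24 tested, with a median of 0.85. Gdf15, a secreted stress cytokine, stood at 2.11, 1.27 and 0.500 FPKM in vehicle and 35, 19 and 20.6 FPKM at 1 mg/kg and rose by 3.51 (SE 0.35, limma adjusted p = 0.000402). Ppp1r15a (GADD34), which reverses the phosphorylation, rose by 2.85 (SE 0.32, limma adjusted p = 0.000618), Chac1 rose by 2.2 and Ddit3 (CHOP) by 1.35. The serine synthesis gene Psat1 fell by 1.07 (SE 0.22, limma adjusted p = 0.0048), and Asns differed by 0.05 (limma adjusted p = 0.774). Of endoplasmic reticulum chaperones and XBP1 targets 14 rose and 2 fell of 26 tested, with Syvn1 up by 0.76 and the sensor Ern1 (IRE1alpha) down by 0.71. The fallen count there was 1 with 1 mg/kg sample 2, 1 mg/kg sample 3, vehicle sample 2 or vehicle sample 3 left out. Heat shock genes went both ways. The small heat shock protein gene Hspb1 stood at 7.16, 5.7 and 3.97 FPKM and 52.8, 88.7 and 83.8 FPKM and rose by 3.52 (SE 0.27, limma adjusted p = 0.000174). The inducible HSP70 gene Hspa1b stood at 8.64, 7.68 and 3.65 FPKM and 38.9, 28.6 and 34.7 FPKM and rose by 2.25 (SE 0.33, limma adjusted p = 0.00143), and Hspa1a, a near-identical copy, rose by 2.07. The constitutive Hsp90ab1 fell by 0.53 (SE 0.12, limma adjusted p = 0.00931) and the mitochondrial chaperonin Hspd1 fell by 0.96 (SE 0.23, limma adjusted p = 0.00949). In all 10 rose and 7 fell of 27 tested, and at 0.1 mg/kg 3 higher and 9 lower of the same 27 passed against vehicle.

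The hypoxia list holds genes that HIF-1 is known to induce and the hypoxia-inducible factor genes Hif1a and Epas1. In it 12 rose and 1 fell of 23 tested, with a median of 0.60. Adm, the vasodilator adrenomedullin, stood at 12.5, 9.91 and 13.4 FPKM in vehicle and 130.1, 53.7 and 48.4 FPKM at 1 mg/kg and rose by 2.46 (SE 0.42, limma adjusted p = 0.00245). P4ha2, a collagen prolyl hydroxylase, rose by 2.75 (SE 0.19, limma adjusted p = 0.000139), Ndrg1 rose by 1.73 (SE 0.33, limma adjusted p = 0.00406) and Bnip3, of mitophagy, rose by 1.61 (SE 0.31, limma adjusted p = 0.00401). Car9 differed by 0.18 (limma adjusted p = 0.647). Hif1a itself was lower by 0.36, and the fallen count was 0 with 0.1 mg/kg sample 2, 1 mg/kg sample 2, 1 mg/kg sample 3, vehicle sample 1, vehicle sample 2 or vehicle sample 3 left out. At 0.1 mg/kg 3 higher and 4 lower passed against the same vehicle libraries, with a median of 0.12. Adm at 0.1 mg/kg stood at 17.9, 7.06 and 16.7 FPKM, and the doses differed by 2.35 (limma adjusted p = 0.0937). Of glycolysis enzymes 5 rose and 1 fell of 19 tested, beside 20.2% higher and 26.7% lower of all tested genes. Aldoa (aldolase A, 1.2) and the lactate transporter Slc16a3 (1.36) were among the higher. The list medians were 0.64, -0.01 and 0.06 in 1 mg/kg samples 1, 2 and 3, so the list was raised mainly in sample 1. Its fallen count was 3 with 1 mg/kg sample 1 left out and 0 with vehicle sample 1 or vehicle sample 2 left out. In the NRF2 list 14 rose and 1 fell of 26 tested. Hmox1, heme oxygenase-1, stood at 189.6, 139.8 and 52 FPKM and 926, 349 and 619.8 FPKM and rose by 2.38 (SE 0.52, limma adjusted p = 0.007), although the vehicle samples themselves differed widely. The ferritin genes Fth1 and Ftl1 rose by 1.38 and 1.21, while Tfrc, the transferrin receptor, stood at 19.06, 19.8 and 26.6 FPKM and 11.1, 7.22 and 6.62 FPKM and fell by 1.31 (SE 0.28, limma adjusted p = 0.00574). Nfe2l2, which encodes NRF2, differed by -0.11 (limma adjusted p = 0.255), and the canonical targets Srxn1 and Txnrd1 by 0.08 and -0.06 (limma adjusted p = 0.625 and 0.801). The fallen count in the NRF2 list, 1 for Tkt, was 3 with 1 mg/kg sample 1 left out.

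Clock and glucocorticoid-responsive genes were higher. Of circadian clock genes 10 rose and 0 fell of 15 tested, with a median of 0.87. Per1 stood at 10.4, 10.2 and 10.1 FPKM in vehicle and 41.4, 62.3 and 45 FPKM at 1 mg/kg and rose by 2.15 (SE 0.17, limma adjusted p = 0.000196), Per2 rose by 1.83, the repressor Bhlhe40 by 1.65 and the clock output gene Dbp by 1.1. The labels give no time of day at collection. Of glucocorticoid-responsive genes 8 rose and 0 fell of 12 tested, with a median of 1.61. Tsc22d3, which encodes the glucocorticoid-induced leucine zipper, stood at 13.3, 12.1 and 13.1 FPKM and 41.2, 89.1 and 53.8 FPKM and rose by 2.1 (SE 0.26, limma adjusted p = 0.000763), and the metallothionein gene Mt1 rose by 1.32. That list shares Per1 with the clock list and Dusp1 and Lcn2 with lists above. At 0.1 mg/kg 5 higher and 0 lower clock genes passed, with a median of 0.32. Of lysosomal genes 19 of 39 rose, among them the cholesterol carrier Npc2 (1.24). The risen count was 12 with vehicle sample 3 left out.

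**Figure D2:**
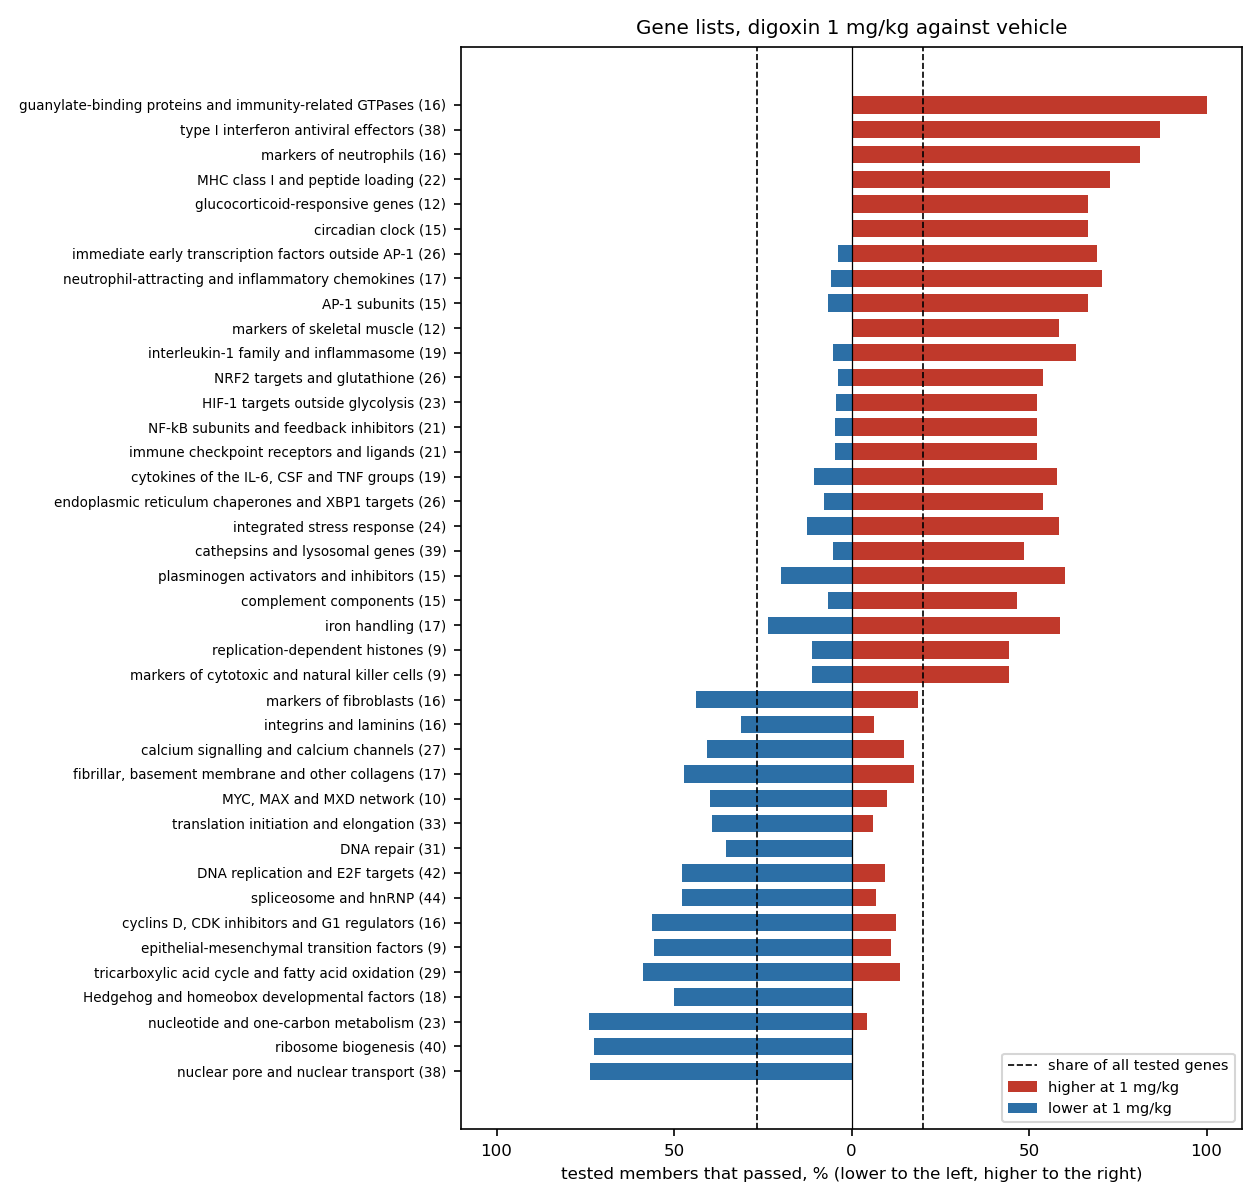
Share of the tested members of selected gene lists that passed at 1 mg/kg against vehicle, in percent, with higher members to the right in red and lower members to the left in blue. Lists were ordered by share higher minus share lower, and only those at either end are shown. Lists between the ends and lists with few tested members are left out, so the bars do not represent all lists. Numbers in parentheses are tested members, and the dashed lines are the shares among all tested genes, 20.2% higher and 26.7% lower. The GTPase list reaches 100% on the higher side, and the nuclear transport, ribosome biogenesis and nucleotide lists hold the largest lower shares shown.

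Genes for assembling ribosomes were lower. Of ribosome biogenesis factors 29 of 40 tested fell and none rose, with a median of -0.49. Heatr1, a factor for transcription and processing of pre-ribosomal RNA, stood at 16.9, 16.5 and 16.7 FPKM in vehicle and 8.23, 7.06 and 7.1 FPKM at 1 mg/kg and fell by 1.07 (SE 0.10, limma adjusted p = 0.000362). Dkc1, the pseudouridine synthase dyskerin, stood at 31.4, 31.5 and 32.4 FPKM and 15.7, 12.1 and 14.5 FPKM and fell by 1.13 (SE 0.20, limma adjusted p = 0.00318). The 3 treated samples were below all vehicle samples for both genes, by less than the falls of the developmental genes above. Utp20 fell by 1.06, Nop16 by 1.1 and Polr1b, a subunit of RNA polymerase I, by 0.62. Cytosolic ribosomal protein genes were mixed: 10 rose and 18 fell of 76 tested, the risen count being 6 with 1 mg/kg sample 2 or vehicle sample 2 left out and the fallen count 9 with 1 mg/kg sample 3 or vehicle sample 3 left out, 10 with 1 mg/kg sample 2 left out and 11 with vehicle sample 2 left out. Rps6 stood at 969, 953 and 924 FPKM and 677, 491 and 478 FPKM and fell by 0.81 (SE 0.21, limma adjusted p = 0.0131), while Rpl24 rose by 0.65. Many of these genes have processed pseudogenes, so reads may be split between copies. In absolute level, the largest fall in mean FPKM among named genes was that of Eef1a1, which delivers aminoacyl-tRNA to the ribosome, from 5201, 5360.1 and 5342 FPKM to 4011, 3532 and 3363 FPKM, and it fell by 0.55 (SE 0.12, limma adjusted p = 0.00809). Eef2, the translocation factor, fell by 0.63 (SE 0.12, limma adjusted p = 0.00423).

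Nuclear transport showed the same one-sided count. Of nuclear pore and transport genes 28 of 38 tested fell and none rose, with a median of -0.37. The scaffold nucleoporin Nup107 stood at 19.3, 18.7 and 22.2 FPKM in vehicle and 12.8, 12 and 12.8 FPKM at 1 mg/kg and fell by 0.64 (SE 0.09, limma adjusted p = 0.00121). Xpo5, the exporter of pre-miRNAs, stood at 22.7, 22.7 and 22.7 FPKM and 13.2, 11.7 and 12.2 FPKM and fell by 0.83 (SE 0.10, limma adjusted p = 0.000654), and the importin Kpnb1 fell by 0.58. Of spliceosome and hnRNP genes 3 rose and 21 fell of 44 tested, with a median of -0.23. Prpf8, the core of the catalytic spliceosome, stood at 73.9, 76 and 77.2 FPKM and 34.2, 26.6 and 28.1 FPKM and fell by 1.33 (SE 0.15, limma adjusted p = 0.000573). The fallen count was 11 with 1 mg/kg sample 2 left out and 12 with 1 mg/kg sample 3 or vehicle sample 2 left out, and the risen count 1 with 1 mg/kg sample 1, 1 mg/kg sample 3, vehicle sample 1 or vehicle sample 2 left out.

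Enzymes of nucleotide synthesis were lower. In that list 1 rose and 17 fell of 23 tested, with a median of -0.61. Cad, which starts pyrimidine synthesis, stood at 34.4, 33.9 and 33.7 FPKM in vehicle and 17.7, 11.9 and 13.9 FPKM at 1 mg/kg and fell by 1.19 (SE 0.16, limma adjusted p = 0.0011). Umps, which completes it, fell by 1.17 (SE 0.11, limma adjusted p = 0.000342). Mthfd1, of one-carbon metabolism, stood at 38.3, 39.7 and 37.7 FPKM and 19.4, 11 and 11.2 FPKM and fell by 1.46 (SE 0.29, limma adjusted p = 0.00478), and the purine enzyme Gart fell by 0.89. DNA replication genes followed with smaller differences: 4 rose and 20 fell of 42 tested, with a median of -0.25. The helicase subunits Mcm2 and Mcm6 fell by 0.47 and 0.56, thymidine kinase Tk1 by 0.66 and the polymerase alpha subunit Pola1 by 0.63. The risen count was 1 with 1 mg/kg sample 3, vehicle sample 2 or vehicle sample 3 left out. Of G1 regulators 2 rose and 9 fell of 16 tested, with Cdk4 at 148, 144 and 152 FPKM in vehicle and 98.3, 84.8 and 89.8 FPKM at 1 mg/kg, where it fell by 0.70 (SE 0.09, limma adjusted p = 0.00093). Ccnd2 fell by 0.87, and the CDK inhibitor Cdkn1a (p21) differed by -0.17 (limma adjusted p = 0.746). The risen count was 1 with 1 mg/kg sample 2, 1 mg/kg sample 3, vehicle sample 1 or vehicle sample 2 left out. Mitotic genes were nearer the background: 5 rose and 9 fell of 38 tested. Among them Kif20a fell by 0.96 (SE 0.12, limma adjusted p = 0.00078) and Aurka (Aurora A) rose by 0.76 (SE 0.13, limma adjusted p = 0.00234). The risen count was 3 with 1 mg/kg sample 2, 1 mg/kg sample 3 or vehicle sample 2 left out, and the fallen count 4 with 1 mg/kg sample 2, 1 mg/kg sample 3 or vehicle sample 2 left out and 5 with vehicle sample 3 left out. Trp53 fell by 0.78 (SE 0.14, limma adjusted p = 0.00333), and its targets went both ways, Zmat3 down by 1.57 and Fas up by 1.28.

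DNA repair genes had 11 of 31 tested lower and none higher, with a median of -0.16. Msh6, of mismatch repair, stood at 24.7, 25.9 and 25.9 FPKM in vehicle and 10.2, 8.12 and 8.39 FPKM at 1 mg/kg and fell by 1.43 (SE 0.21, limma adjusted p = 0.00157). The groups were well apart, with sample 1 the highest treated sample. Parp1 fell by 0.96 and Atm by 0.53, while Brca1 differed by -0.09 (limma adjusted p = 0.54). The fallen count was 6 with vehicle sample 3 left out and 7 with vehicle sample 1 or vehicle sample 2 left out, and the risen count 1 with 1 mg/kg sample 1 left out.

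Mitochondrial and lipid metabolism moved unevenly. Of tricarboxylic acid cycle and fatty acid oxidation genes 4 rose and 17 fell of 29 tested. Pdha1, of the pyruvate dehydrogenase complex, fell by 0.73 (SE 0.12, limma adjusted p = 0.00191), and Hadhb, of beta-oxidation, fell by 0.70 (SE 0.08, limma adjusted p = 0.000689). Pcx (pyruvate carboxylase), which refills the cycle, rose by 1.04 (SE 0.20, limma adjusted p = 0.00372). The fallen count was 10 with vehicle sample 3 left out and 11 with 1 mg/kg sample 3 or vehicle sample 2 left out, and the risen count 7 with 1 mg/kg sample 1 left out. Of nuclear-encoded oxidative phosphorylation genes 6 rose and 19 fell of 66 tested, with the ATP synthase subunit Atp5f1b down by 0.89 and the risen count 3 with 1 mg/kg sample 2, 1 mg/kg sample 3, vehicle sample 2 or vehicle sample 3 left out and 14 with 1 mg/kg sample 1 left out. Of 13 mitochondrially encoded genes 2 rose, and 10 without 1 mg/kg sample 1, with list medians of -0.03, 0.95 and 1.32 in the 3 treated samples. The cytochrome oxidase gene mt-Co1 stood at 4212, 4863 and 4412 FPKM in vehicle and 6041, 8086 and 9955 FPKM at 1 mg/kg and rose by 0.81 (SE 0.20, limma adjusted p = 0.0103). Of fatty acid and lipid synthesis genes 7 rose and 9 fell of 26 tested, and of cholesterol synthesis and LXR genes 3 rose and 8 fell of 28 tested, with risen counts of 3 with vehicle sample 3 left out in the first list and 6 with 1 mg/kg sample 1 left out in the second. Fasn (fatty acid synthase) stood at 56.2, 55 and 56.8 FPKM and 19.8, 19.5 and 21.8 FPKM and fell by 1.42 (SE 0.11, limma adjusted p = 0.000174). Acaca (acetyl-CoA carboxylase) fell by 1.03 and the desaturase Fads2 by 2.95. Idi1, of isoprenoid and cholesterol synthesis, fell by 1.27. Srebf1, the regulator of fatty acid synthesis genes, rose by 0.58 (SE 0.12, limma adjusted p = 0.00513), and the fatty acid receptor Cd36 rose by 1.9 (SE 0.33, limma adjusted p = 0.00254).

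Hedgehog, homeobox and epithelial-mesenchymal transition factors leaned lower, set against 20.2% higher and 26.7% lower of all tested genes. The Wnt list (median 0.01) and the TGF-beta and BMP list (median -0.09) went both ways. Of Hedgehog and homeobox factors 9 of 18 tested fell and none rose, with a median of -0.64. The Hedgehog transducer Smo fell by 1.12 (SE 0.15, limma adjusted p = 0.00113), Hoxb7 fell by 1.33 (SE 0.23, limma adjusted p = 0.00263), Hoxd9 fell by 1.64 (SE 0.36, limma adjusted p = 0.00709) and Tbx3 fell by 1.27 (SE 0.22, limma adjusted p = 0.00277). Of epithelial-mesenchymal transition factors 1 rose and 5 fell of 9 tested: Zeb1 stood at 6.89, 8.34 and 8.57 FPKM in vehicle and 3.82, 3.85 and 3.32 FPKM at 1 mg/kg and fell by 0.93 (SE 0.19, limma adjusted p = 0.0052), while Snai2 (Slug) stood at 5.82, 6.16 and 4.53 FPKM and 21.9, 26.6 and 27.3 FPKM and rose by 2.02 (SE 0.21, limma adjusted p = 0.00044). The risen count was 2 with 0.1 mg/kg sample 1 or 0.1 mg/kg sample 2 left out. Cdh2 (N-cadherin) fell by 1.65. Of Wnt pathway genes 8 rose and 5 fell of 21 tested, the fallen count being 3 with 1 mg/kg sample 3, vehicle sample 1 or vehicle sample 2 left out. Wnt ligands moved in opposite directions: Wnt10a rose by 3.57 (SE 0.49, limma adjusted p = 0.00113) and Wnt6 rose by 3.49 (SE 0.70, limma adjusted p = 0.00478), beside the fall of Wnt7b by 3.1. The Wnt target Axin2 rose by 1.54, its coreceptor Lrp5 fell by 2.01, and Rnf43, a negative feedback ligase, rose by 2.35. In the TGF-beta and BMP list 6 rose and 10 fell of 30 tested. Smad3, the transducer, stood at 15.5, 17.2 and 17.8 FPKM and 4.08, 2.03 and 2.8 FPKM and fell by 2.2 (SE 0.35, limma adjusted p = 0.0019), and Bmp7 rose by 2.05. Hes1, a Notch target, fell by 1.7, and its ligand gene Jag1 rose by 1.27. The imprinted long noncoding RNA H19 fell by 1.65 (SE 0.30, limma adjusted p = 0.00305). Malat1 and Neat1, abundant nuclear noncoding RNAs, rose by 1.67 and 1.42.

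Extracellular matrix genes divided within families. Col1a1, a chain of collagen I, stood at 58.1, 35.8 and 26.3 FPKM in vehicle and 119.7, 167 and 141 FPKM at 1 mg/kg and rose by 1.86 (SE 0.32, limma adjusted p = 0.00248). Col3a1, of collagen III, stood at 586, 684 and 644 FPKM and 309.6, 141 and 128 FPKM and fell by 1.84 (SE 0.45, limma adjusted p = 0.0109). The groups did not overlap for either gene, and sample 1 lay nearest to vehicle for Col3a1. Col5a2 fell by 2.12 and Col5a3 rose by 1.45. In the collagen list 3 rose and 8 fell of 17 tested, with a median of -0.46. The crosslinking enzymes split likewise, with Loxl1 up by 2.6 and Loxl2 down by 2.39. The proteoglycan Dcn (decorin) fell by 1.96 (SE 0.33, limma adjusted p = 0.00229), and fibrillin-1, Fbn1, fell by 1.97 (SE 0.28, limma adjusted p = 0.00127). Sparc, a collagen-binding glycoprotein, rose by 1.29 (SE 0.27, limma adjusted p = 0.00558). Fibroblast markers, which include Col1a1, Col3a1 and Dcn, summed to 1246, 1361 and 1258 FPKM in vehicle and 777, 469 and 437 FPKM at 1 mg/kg, with no overlap between groups and none of the 18 markers at 0 in all 6 libraries. Col3a1 alone makes up a large part of that sum. The list itself was split: 3 rose, Col1a1 among them, and 7 fell of 16 tested, with a median of -0.31. The part of fibroblast numbers in the matrix results was not tested.

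Several host tissue markers followed single samples more than groups. Skeletal muscle markers summed to 137, 56.3 and 57.1 FPKM in vehicle and 100.04, 575 and 1498 FPKM at 1 mg/kg. Sample 1 lay within the vehicle range and samples 2 and 3 far above it. In that list 7 rose and 0 fell of 12 tested, and the risen count was 1 with vehicle sample 3 left out, 2 with 1 mg/kg sample 2, 1 mg/kg sample 3 or vehicle sample 2 left out and 12 with 1 mg/kg sample 1 left out. Tcap, the titin-cap protein, stood at 1.45, 0.632 and 0.672 FPKM and 2.22, 52.6 and 138 FPKM, and its rise of 3.94 (SE 1.15, limma adjusted p = 0.0218) missed the threshold in 4 of 9 leave-out fits (largest limma adjusted p = 0.0695, with 1 mg/kg sample 2 dropped). No endothelial marker of 22 tested passed, and 10 were higher without 1 mg/kg sample 1. Of 12 skin markers, Flg and Krtdap were listed at 0 in all 6 libraries and 2 could be tested, Sbsn and Lgals7, which both rose. The sum of the 12 was 3.6, 2.34 and 2.11 FPKM in vehicle and 13.2, 35.1 and 25.3 FPKM at 1 mg/kg, without overlap between the groups. Schwann cell and nerve genes split, with Pmp22 up by 3.05 and Mbp down by 1.7.

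**Figure D3:**
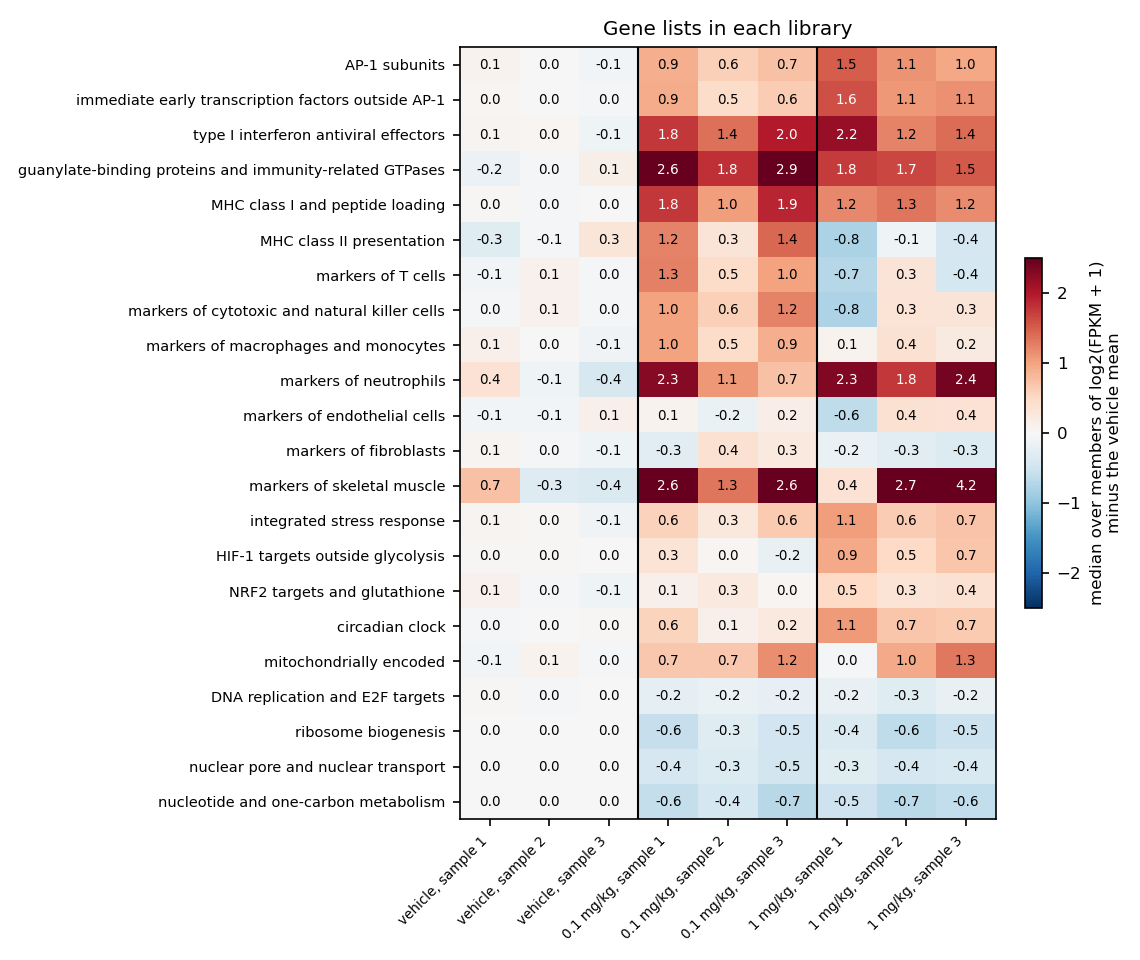
Median over tested members of log2(FPKM + 1) minus the vehicle mean, for 22 gene and marker lists (rows) in each of the 9 libraries (columns), with red for higher and blue for lower. The interferon, GTPase, class I and AP-1 rows are red in every digoxin library, the class II, T cell and muscle rows differ between digoxin libraries, and the last 4 rows are blue in all 6 digoxin libraries.

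Across all genes grouped by the leading letters of their symbols, a grouping that can join unrelated genes, 143 families had at least 10 tested members. The 8 with the largest share of risen members were led by Ly (9 of 10, median 1.36) and Serpinb (9 of 10, median 1.62). The Serpinb genes encode intracellular serine protease inhibitors, and Serpinb9b rose by 3.2 (SE 0.20, limma adjusted p = 7.75e-05). Ly6a (Sca-1) rose by 2.42 (SE 0.25, limma adjusted p = 0.000452) and Ly6e rose by 1.36 (SE 0.18, limma adjusted p = 0.000956). Then came Ifi (12 of 15, with Ifi204, a DNA sensor, up by 2.57), Ccl and Parp (7 of 12 each), Klf (6 of 11), Irf (5 of 10) and Sp (5 of 10). On the lower side stood Nup (12 of 18), Eef (7 of 11), Mettl (12 of 20), Galnt (6 of 10), Mcm (6 of 10), Utp (6 of 11), Polr (17 of 32) and Cdc (15 of 30). Galnt genes start mucin-type O-glycosylation, and Galnt1 fell by 0.68 (SE 0.09, limma adjusted p = 0.00107). Mettl genes encode methyltransferases, of which Mettl2 fell by 0.67 (SE 0.08, limma adjusted p = 0.000868). The RNA polymerase II subunits went apart: Polr2b fell by 0.73 (SE 0.08, limma adjusted p = 0.000462), and Polr2a, the largest subunit, stood at 32.2, 36.8 and 37.2 FPKM in vehicle and 68.9, 75.7 and 69.7 FPKM at 1 mg/kg and rose by 0.99 (SE 0.12, limma adjusted p = 0.000693).

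Changed genes also lay in runs along the chromosomes, a pattern looked for after it had been seen in the data. Tested genes placed by RefSeq gene order on GRCm38 (12264, or 94.71%) were cut into 482 windows of 25 neighbours, and the median difference was taken in each. Between vehicle libraries these medians ranged from -0.21 to 0.16. At 1 mg/kg 92 windows lay below that range and 66 above it, and their SD was 0.17, 0.245 and 0.233 in samples 1, 2 and 3 against 0.058, 0.044 and 0.043 in vehicle. The longest run, from Prorsd1 to Kif1c on chromosome 11, covered 12 of 41 windows and 300 genes, of which 155 rose and 29 fell. Its median was 0.34, at 0.09, 0.51 and 0.42 in the 3 samples, so it was near 0 in sample 1. On chromosome 13, in a run that starts at Mylip, 9 of 18 windows were lower, with 124 of 225 genes lower, 12 higher and sample medians of -0.38, -0.45 and -0.41. On chromosome 2, from Snai1 to Rtel1, 45 of 75 genes rose and 3 fell. The lowest window, on chromosome 17 from Dync2li1 to Gm1976, had 22 of 25 genes lower with a median of -0.83, and it holds Msh6 beside Calm2, Socs5, Epas1 and Lrpprc.

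The lists were also read against their neighbours on the chromosomes. Only members that lie in a window were used. Taking each such member minus the median of its own window, the median was 1.7 for type I interferon effectors, 1.36 for the GTPases, 1.29 for class I presentation, 1.36 for AP-1 and -0.49 for ribosome biogenesis. For the same members without it the medians were 1.67, 1.6, 1.25, 1.17 and -0.51. Less was left for DNA replication, at -0.15 against -0.25, for G1 regulators, at -0.15 against -0.36, and for collagens, at -0.11 against -0.46, while DNA repair stood at -0.18 against -0.16. What underlies the runs was not tested.

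**Figure D4:**
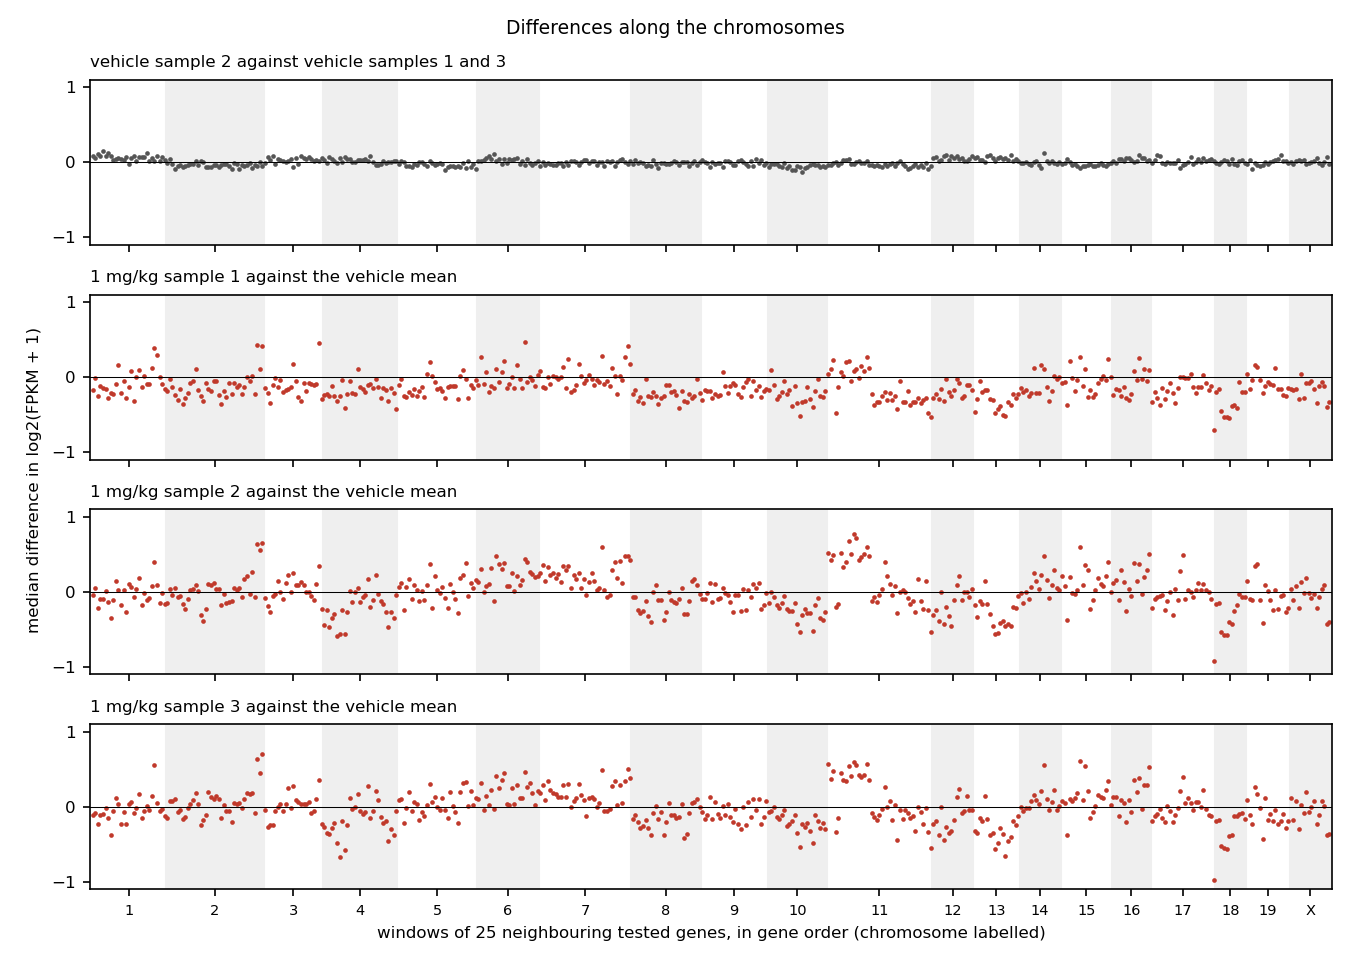
Median difference in log2(FPKM + 1) in windows of 25 neighbouring tested genes, in gene order along the chromosomes, for vehicle sample 2 against the other 2 vehicle samples (grey) and for each 1 mg/kg sample against the vehicle mean (red). The vehicle panel stays within the range of -0.21 to 0.16, and the raised block on chromosome 11 is plain in samples 2 and 3 and weak in sample 1.

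The 2 doses of digoxin were set side by side to see whether 1 mg/kg gave levels of its own. No gene passed between 1 and 0.1 mg/kg by limma at an adjusted p of 0.05 (0.0% of 12949), with 1774 at an unadjusted p under 0.05 (13.7%), and limma-voom on recovered reads gave 0 and 1705. The smallest adjusted p was that of Marcks, a membrane-bound substrate of protein kinase C, at 23.9, 24.3 and 23.6 FPKM in vehicle, 17.1, 17.7 and 16.6 FPKM at 1 mg/kg and 29.3, 28.1 and 33.5 FPKM at 0.1 mg/kg, a difference between doses of -0.79 (limma adjusted p = 0.052). Ms4a7, a macrophage membrane protein, stood at 17, 16.7 and 15.3 FPKM in vehicle, 7.31, 9.97 and 9.29 FPKM at 1 mg/kg and 20.8, 16.4 and 21.4 FPKM at 0.1 mg/kg (limma adjusted p between doses = 0.0858). Ccn2, a matrix protein and YAP target, stood at 2.74, 2.46 and 2.29 FPKM, 6.66, 7.65 and 9.35 FPKM and 3.77, 2.99 and 3.87 FPKM in the same order (limma adjusted p between doses = 0.0858). The 2 doses did not overlap for any of the 3, but genes were picked here on that condition, so it adds no support. By the SD of its window medians, 0.133, sample 2 at 0.1 mg/kg lay between the other digoxin libraries and vehicle. That order did not hold in every list: its GTPase median was 1.84, against 1.76, 1.67 and 1.53 in the 1 mg/kg samples. Without 0.1 mg/kg sample 2, 115 genes passed between doses, 10 higher and 105 lower at 1 mg/kg. A p that misses the threshold does not show that the doses act alike.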

How the data were processed

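Poly(A)-selected tumour RNA was sequenced as paired reads of 150 bases, per the labels' protocols. Per the submitters' processing notes, fastp 0.22.0, HISAT2 2.2.1 and GRCh38, a human build, were used, although the table lists mouse symbols; the counting program is not given in the sources used here. The authors deposited FPKM values per gene, and reads recovered from their steps were whole (tolerance 0.03) for 99.95% of tested genes. Genes with at least 1 FPKM in 3 of the 6 libraries were tested on log2(FPKM + 1) with limma 3.58.1 in R 4.3.3 (trend, 6 residual degrees of freedom, all 9 libraries, 1 mean per group, no replicate block, two-sided, Benjamini-Hochberg over all tested genes), and the fit was tested on simulated data. Depth was taken from the recovered reads, and counting precision enters through the spread between libraries. Everything else used Python 3.11.15 with NumPy 2.4.6, pandas 2.3.3 and matplotlib 3.10.9.

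Members and lists were chosen with earlier results of these data known. The 97 lists (82 of genes, 15 of cell markers) hold 2367 symbols, of which 2296 matched as written, 34 by synonym and 37 not at all. The 15 largest rises and falls in log2 and the 10 largest in mean FPKM were named. They were taken among genes that passed the test, did not overlap between groups and carried no predicted or pseudogene symbol. Other genes were named whether or not they passed. These were up to 6 members per list by unadjusted p, members central to a list given as values, and up to 3 members of the 8 families on each side. The genes with the smallest p between doses were added because none passed. Tests leaving out each library, pseudocounts, filters, scalings, limma-voom and a replicate block were tried as alternatives. Some genes are not reported here.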

Additional observations from a re-analysis of the deposited data

Results flagged for a closer look

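For 4 of the genes named by rule the doses lay on opposite sides of vehicle, with every sample at 1 mg/kg below every vehicle sample and every sample at 0.1 mg/kg above every vehicle sample; the difference between doses passed for none of them. Marcks, whose values are given above, differed by -0.79 between doses (limma adjusted p = 0.052), and the lymphoid transcription factor gene Pou2f2 by -0.94 (limma adjusted p = 0.0858). Pou2f2 stood at 1.324, 1.36 and 1.44 FPKM in vehicle, 0.988, 1.319 and 1.14 FPKM at 1 mg/kg and 3.05, 2.52 and 3.9 FPKM at 0.1 mg/kg. Its 1 mg/kg sample 2 thus lay barely below vehicle sample 1. H2-DMb2, a chaperone of class II peptide loading, stood at 1.38, 1.64 and 1.43 FPKM in vehicle, 0.664, 1.3 and 0.862 FPKM at 1 mg/kg and 2.15, 3.25 and 2.21 FPKM at 0.1 mg/kg, and 1 mg/kg minus 0.1 mg/kg was -0.86 (limma adjusted p = 0.0937). H3f3a, a gene for the replacement histone H3.3, stood at 140.1, 146 and 144 FPKM in vehicle, 121, 129 and 127 FPKM at 1 mg/kg and 150.2, 161 and 157 FPKM at 0.1 mg/kg, a difference between doses of -0.31 (limma adjusted p = 0.117). Its fall against vehicle at 1 mg/kg, -0.19 (limma adjusted p = 0.0394), missed the threshold in 7 of 9 fits that each dropped 1 library (largest limma adjusted p = 0.121, with vehicle sample 2 dropped).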

How the results depend on the processing

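Across 22 alternative settings no named gene that had passed changed direction. Genes that had not passed were not checked for this. Of 605 named or listed genes tested, 557 passed, 493 of them in every alternative, and 60 lost their call in at least 1 of the 9 settings that left out a library. Leaving out each library in turn gave 4125 to 6989 changed genes (1822 to 3471 higher, 2303 to 3745 lower), 1128 to 1552 at least 2-fold (753 to 977 higher, 346 to 575 lower) and 0 to 115 between doses (0 to 10 higher, 0 to 105 lower). Vehicle sample 3 gave the smallest lower count, 2303. A mean of at least 5 FPKM left 748 genes at 2-fold or more (496 higher, 252 lower). The 2-fold lower count was 811 by limma-voom, 748 and 726 with pseudocounts of 0.01 and 0.1, and 788 on TPM, which moved the median of all genes from -0.06 to -0.15. Between doses, 7 genes passed with no filter (3 higher, 4 lower), 1 at a mean of at least 5 FPKM (lower) and 442 when 1 mg/kg sample 1 and 0.1 mg/kg sample 2 were both dropped (132 higher, 310 lower), an alternative chosen after seeing the data. With the replicate block 5464 genes passed (2357 higher, 3107 lower; 1258 at 2-fold). Same-numbered samples correlated at 0.005, -0.066 and -0.007 in their deviations, so they share only a number. The cause of these shifts was not tested. The pseudocount and the filter limit what can be seen below about 1 FPKM.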

Other observations

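In the list of BCL2 family genes and death receptors 6 rose and 7 fell of 25 tested, near the background shares, and the fallen count was 4 with 1 mg/kg sample 3, vehicle sample 2 or vehicle sample 3 left out. Its survival gene Mcl1 rose by 1.03 (SE 0.15, limma adjusted p = 0.00155) and the necroptosis kinase Ripk3 rose by 1.13 (SE 0.21, limma adjusted p = 0.00372). Of galectin genes 4 rose and 0 fell of 7 tested: Lgals3 rose by 1.5 (SE 0.21, limma adjusted p = 0.00113) and Lgals7 rose by 3.55 (SE 0.60, limma adjusted p = 0.00253). Of complement genes 7 rose and 1 fell of 15 tested, the fallen count being 0 with 0.1 mg/kg sample 1, 1 mg/kg sample 1, 1 mg/kg sample 3, vehicle sample 2 or vehicle sample 3 left out, and the protease gene C1s1 rose by 1.87 (SE 0.30, limma adjusted p = 0.00195). In the actin cytoskeleton and SRF-MRTF list 7 rose and 5 fell of 30 tested, the risen count being 4 with vehicle sample 2 or vehicle sample 3 left out and the fallen count 3 with 1 mg/kg sample 3 or vehicle sample 2 left out and 12 with 1 mg/kg sample 1 left out; Actg2 rose by 3.69 and Myl9 by 3.06. Of pericyte and smooth-muscle markers 1 of 10 passed, and 0 with 1 mg/kg sample 3, vehicle sample 2 or vehicle sample 3 left out. The linker histone genes H1f0 and H1f4 rose by 1.2 and 1.16. Of aminoacyl-tRNA synthetases 5 rose and 9 fell of 20 tested, with Hars1 (-1.04) among the lower and Cars (0.73) among the higher. The risen count there was 3 with vehicle sample 3 left out. Igf2r, which clears IGF2, fell by 1.86 (SE 0.39, limma adjusted p = 0.00546), and the autophagy receptors Sqstm1 and Nbr1 moved apart, at 1.05 and -1.37 (SE 0.26, limma adjusted p = 0.00399 for Nbr1).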
